A study of Mesocricetus auratus with 6 samples.

Results

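The genes described here encode proteins that bind and splice messenger RNA precursors, measured in golden hamster (Mesocricetus auratus) uterus on day 5 of pregnancy. They are the 44 genes, of 12393 measured, whose mouse symbol starts with Hnrnp (18 genes), Srsf (9), Snrp (8), Sf3a (3) or Sf3b (6). Together they have 115 of the 22626 probe sets tested. The platform annotation had to give a probe set exactly 1 symbol, and each gene was represented by its probe set of highest mean over the 6 arrays. Hnrnpab and Hnrnpa2b1 were followed over all their probe sets. These 2 genes were singled out with their differences already known, so their values stand as a description and carry no test. All 44 genes were chosen with earlier results of these data known, so their shares beside those of all genes are a description too. RefSeq lists all 44 symbols in the hamster assembly BCM_Maur_2.0. Another 14 probe sets carry a symbol of this kind beside a second symbol and were left out, so Hnrnpa3, Snrpa, Snrpd1 and Snrpd2 are not among the 44, and 3 probe sets of Hnrnpa1 are not used.

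The tissue was uterus of untreated animals, with 3 arrays of sites where an embryo was implanting and 3 arrays of the segments between them, the interimplantation sites. Per the series' design text the RNA came from 3 different animals, but the labels do not say whether arrays of the same number share an animal or whether the embryo was removed. The array carries probes made for mouse, so a mismatch with the hamster transcript can dim a probe set and shrink its difference. Levels of different probe sets were therefore compared only to choose or rank probe sets by brightness and to ask which were brighter than the controls. Gaps between probe sets of Hnrnpa2b1 and mean levels of marker lists are given only to compare arrays.

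As background, an intron is removed by the spliceosome, whose core consists of small nuclear ribonucleoproteins (snRNPs). Most snRNPs are a small RNA wrapped by a ring of Sm proteins and joined by proteins of their own. SR proteins, rich in arginine and serine, mostly bind exons and promote their inclusion, while heterogeneous nuclear ribonucleoproteins (hnRNPs) coat the precursor and often oppose them. Many SR and hnRNP genes make several transcripts, including ones with a retained or added exon that are degraded. In the uterus the stroma around an attaching embryo begins to divide and differentiate, which in rodents leads to the decidua.

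Values are log2 RMA signals, differences are implantation minus interimplantation, and a gene was called at a limma adjusted p under 0.05 over all 22626 probe sets. On this scale arrays of a group correlated at 0.987 or more over probe sets, and the array medians lay between 4.55 and 4.57. The hybridisation controls, bacterial and phage transcripts spiked into every sample, averaged 6.64 ± 0.17 on the implantation arrays and 7.03 ± 0.27 on the interimplantation arrays (SD, n = 3 each), with overlap. Scaling to them moved the median difference of all genes to 0.38, against -0.02 as deposited, so directions here are relative to the bulk of the genes. With that scaling all 44 members had positive differences. Stromal markers (Vim, Col3a1, Hand2, Hoxa11 and 5 others) were not called, and 4 of the 9 had positive differences. Among them Hand2 was at 0.58 with all implantation arrays above the interimplantation arrays (adjusted p = 0.0685). Vim was at -0.29 (adjusted p = 0.293). Of 7 smooth muscle markers 2 were called lower (Actg2 at -1.74 and Tagln at -1.26), while Des and Myh11 were at 0.13 and 0.06. Of 9 epithelial markers 3 were called lower (Cldn7, Wnt7b and Sox17), and no marker of either list was called higher. The mean level of the 7 smooth muscle markers ran from 5.58 to 5.91 on the implantation arrays and from 6.20 to 6.51 on the interimplantation arrays, and that of the 9 epithelial markers from 5.02 to 5.14 and from 5.30 to 5.42. Of 8 trophoblast and embryo markers none was called, and only Hand1 was brighter than every Bacillus control. These 27 bacterial controls match no hamster transcript and were used here to mark the background. Their median was 2.68 and the brightest was at 5.79, and whether any was added to the samples was not tested. The smooth muscle marker Myh11, with a mean of 4.63, was not brighter than the brightest control. The part of these marker differences in the results below was not tested. In whole tissue, a change in the share of a cell type and a change of RNA per cell cannot be told apart.

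At the implantation site 6 of the 44 genes were higher and none was lower. They were the hnRNP genes Hnrnpab, Hnrnpd, Hnrnpa2b1 and Hnrnpu, the SR protein gene Srsf1 and the snRNP gene Snrpa1. Of all genes 1.36% were called higher and 1.18% lower, against 13.6% of the members higher, or 4 of 42 (9.52%) without the 2 genes singled out. Leaving those 2 out does not free the shares of selection, since the whole list was chosen with earlier results known. The 6 genes differed by 1.56-fold to 2.48-fold. Of the 27 members brighter than every Bacillus control, 5 were called higher (18.5%) and 0 lower, while of all genes at such levels 3.49% were called higher and 2.61% lower. In 9 of these 27 members (33.3%) the implantation arrays all lay above the interimplantation arrays, against 11.9% of all such genes. Without Hnrnpab and Hnrnpa2b1, 3 of the 25 bright members were called higher (12%) and 7 had all implantation arrays above (28%). The median difference of the 44 genes was 0.06, against -0.02 for all genes, and 38 of the 44 were not called. The members differed widely among themselves, from -0.38 for Srsf5 to 1.31 for Hnrnpab. Interimplantation array 1 gave the lowest of the 6 values in each of the 6 called genes. Without that array 7 members were called higher and 2 lower, against 1.56% and 1.94% of all genes. The median difference of the members was then 0.02, against -0.03 for all genes. Of the 44 members 23 were then positive, against 30 with all arrays.

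**Figure D1:**
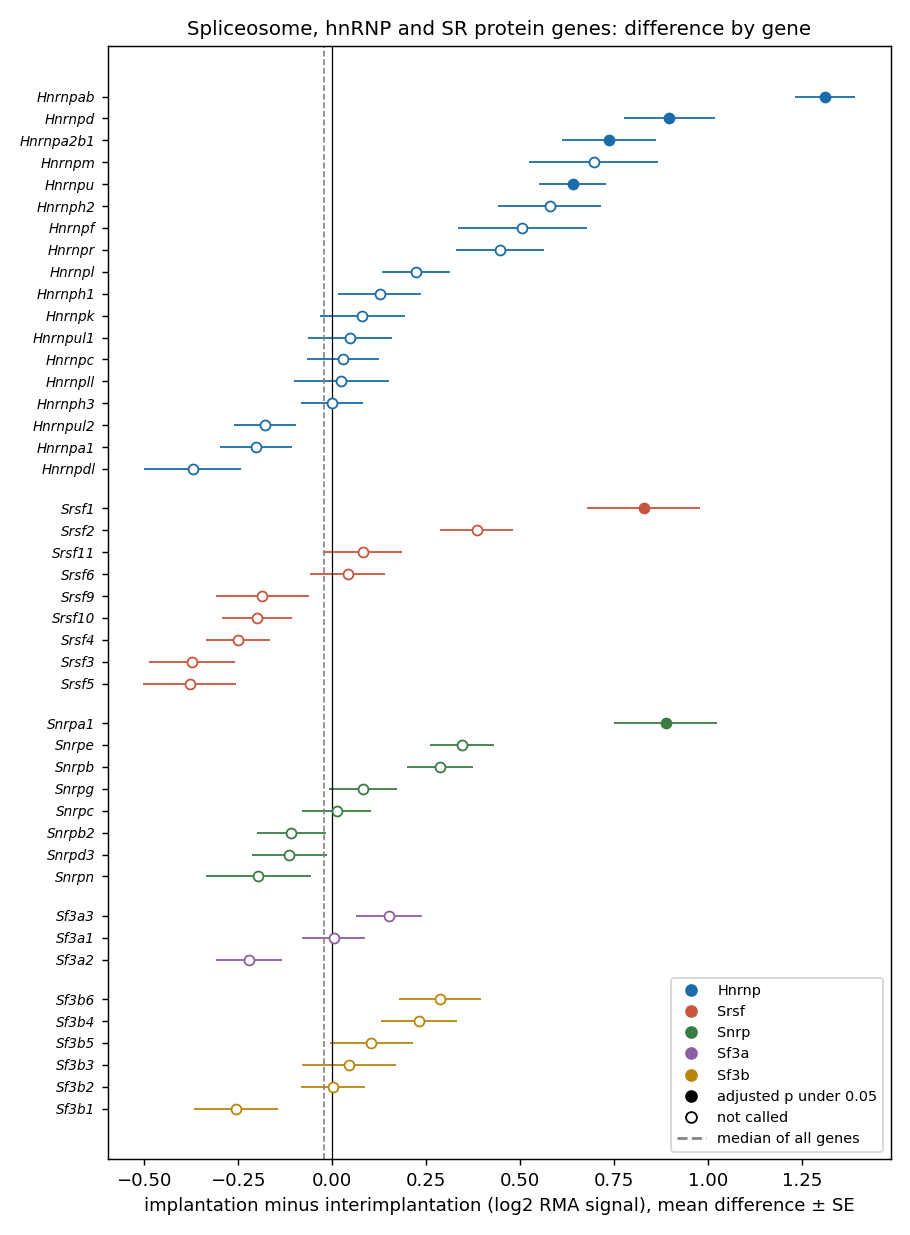
Difference of each of the 44 genes between implantation and interimplantation arrays (x axis, log2 RMA signal, mean difference ± SE of the limma fit, 3 arrays a group), grouped by prefix; filled points were called. Of the 18 Hnrnp genes 14 lie above 0, while 5 of the 9 Srsf genes lie below it.

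By prefix, 4 of the 18 Hnrnp genes were called higher, 0 lower and 14 were not called, with a median difference of 0.18. Over the 16 without Hnrnpab and Hnrnpa2b1, 2 were called higher (12.5%) and the median was 0.10. Of the 9 Srsf genes 1 was called higher (11.1%), with a median of -0.19 that became 0.21 when scaled to the hybridisation controls and 0.02 when all probe sets of a gene were averaged. Of the 8 Snrp genes 1 was called higher (12.5%), with a median of 0.05. No Sf3a or Sf3b gene was called by limma; at an unadjusted p under 0.05 there were 0 higher and 1 lower of the 3 Sf3a genes, and 2 higher and 1 lower of the 6 Sf3b genes, where 6.14% of all genes were higher and 8.67% lower. Their medians were 0.00 and 0.07. The implantation arrays all lay above the interimplantation arrays for 8 of the 18 Hnrnp genes (44.4%, or 6 of 16 without Hnrnpab and Hnrnpa2b1), 2 of the 9 Srsf genes and 3 of the 8 Snrp genes, against 8.02% of all genes. They all lay below for 4 of the 44 members, against 12.1% of all genes, so that count is near the background.

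The A/B and D types of hnRNP carry paired RNA recognition motifs and bind, among others, AU-rich sequences. Hnrnpd, which encodes the AU-rich element binding protein AUF1, read 8.29, 8.33 and 8.14 on the implantation arrays and 7.19, 7.66 and 7.22 on the interimplantation arrays. Every implantation array lay above every interimplantation array. The difference was 0.90 (SE 0.12, 1.86-fold, adjusted p = 0.00249 in the limma fit). Its 1 probe set, 1425142_a_at, is of the kind shared by several transcripts.

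Hnrnpdl, a close relative of Hnrnpd, did not show that pattern. Its probe set of highest mean, 1428225_s_at, read 6.88, 6.93 and 6.83 on the implantation arrays and 6.90, 7.46 and 7.40 on the interimplantation arrays. Interimplantation array 1 sat among the implantation values. The difference was -0.37 (SE 0.13, limma adjusted p = 0.192). Without interimplantation array 1 it was -0.55 and called lower (adjusted p = 0.00460). Its other 5 probe sets ran from -0.32 to 0.51, with 3 of 6 positive in all, so the probe sets of this gene had no common direction. Hnrnpa1, which encodes one of the most abundant hnRNPs, was measured here only by 3 dim probe sets, at -0.20, -0.13 and 0.02, none of them called.

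Hnrnpab, an hnRNP of the same family that also acts in mRNA transport, was the member with the highest difference. Its probe set of highest mean, 1415914_at, read 9.45, 9.38 and 9.41 on the implantation arrays and 8.04, 8.14 and 8.12 on the interimplantation arrays. The arrays of a group lay close together while the groups stood 1.31 apart (SE 0.08), a 2.48-fold difference. The following 2 probe sets in brightness had the same order: 1455855_x_at read 8.95, 9.18 and 8.95 on the implantation arrays and 8.04, 8.31 and 8.23 on the interimplantation arrays. For 1453849_s_at these values were 7.84, 7.96 and 7.94 on the implantation arrays and 6.66, 6.97 and 6.72 on the interimplantation arrays. The differences of this pair were 0.83 and 1.13.

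Of the 4 remaining probe sets of Hnrnpab, 1431349_at separated the groups as well (difference 0.76), although it was dim, at 3.90, 3.52 and 3.80 on the implantation arrays and 2.75, 3.08 and 3.11 on the interimplantation arrays. In 1426114_at a single array stood out. It read 7.38, 7.02 and 7.59 on the implantation arrays and 8.88, 6.46 and 6.41 on the interimplantation arrays, so interimplantation array 1 was the highest of the 6 while the other 2 of its group were the lowest. The difference was 0.08 with that array and 0.90 without it. On its array 1415914_at read 8.04, which was close to the other interimplantation arrays, so this departure did not show in the brightest probe set. The dimmest probe sets, 1448144_at and 1459880_at, differed by 0.13 and -0.14. At levels of 2.42 to 3.08 they lay near the median Bacillus control of 2.68.

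Hnrnpa2b1 encodes hnRNP A2 and B1, isoforms of a single gene that bind nuclear precursors and guide RNA into granules. Its probe sets went opposite ways. The brightest, 1420365_a_at, read 8.40, 8.65 and 8.25 on the implantation arrays and 7.52, 7.64 and 7.93 on the interimplantation arrays, a difference of 0.74 (SE 0.12, 1.67-fold). The following one, 1433829_a_at, read 6.36, 6.31 and 6.37 on the implantation arrays and 6.70, 6.68 and 6.85 on the interimplantation arrays, a difference of -0.39 (SE 0.08). In each case the groups did not overlap, with the implantation arrays all above in 1420365_a_at and all below in 1433829_a_at. The other 2, 1433830_at and 1434047_x_at, were at -0.45 (SE 0.14) and 0.02 (SE 0.14), with overlap between the groups.

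The disagreement between the probe sets of Hnrnpa2b1 does not depend on how whole arrays are scaled, because both sit on the same arrays. The gap of 1420365_a_at over 1433829_a_at was 2.04, 2.34 and 1.87 on the implantation arrays and 0.83, 0.96 and 1.08 on the interimplantation arrays. It was larger on each implantation array than on any interimplantation array, by 1.13 on average. The sign of each probe set does depend on the scaling, and after scaling to the hybridisation controls the pair was at 1.13 and 0.01. Over the array, probe sets with differences of both signs were common: 20 of the 30 members with several probe sets had them (66.7%), against 55.4% of all 4956 such genes. Probe sets called in opposite directions were rare: Hnrnpa2b1 was the 1 member with them and the 1 gene of all 4956. This gene was singled out with its differences known, so that count is a description. Its lower call, that of 1433829_a_at, was kept if interimplantation array 1 was left out (limma adjusted p = 0.0299). The call was lost for each other array left out (adjusted p of 0.0505 to 0.129). The probe sets of a gene can match different transcripts or transcript ends, and which ones these match in the hamster was not tested.

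**Figure D2:**
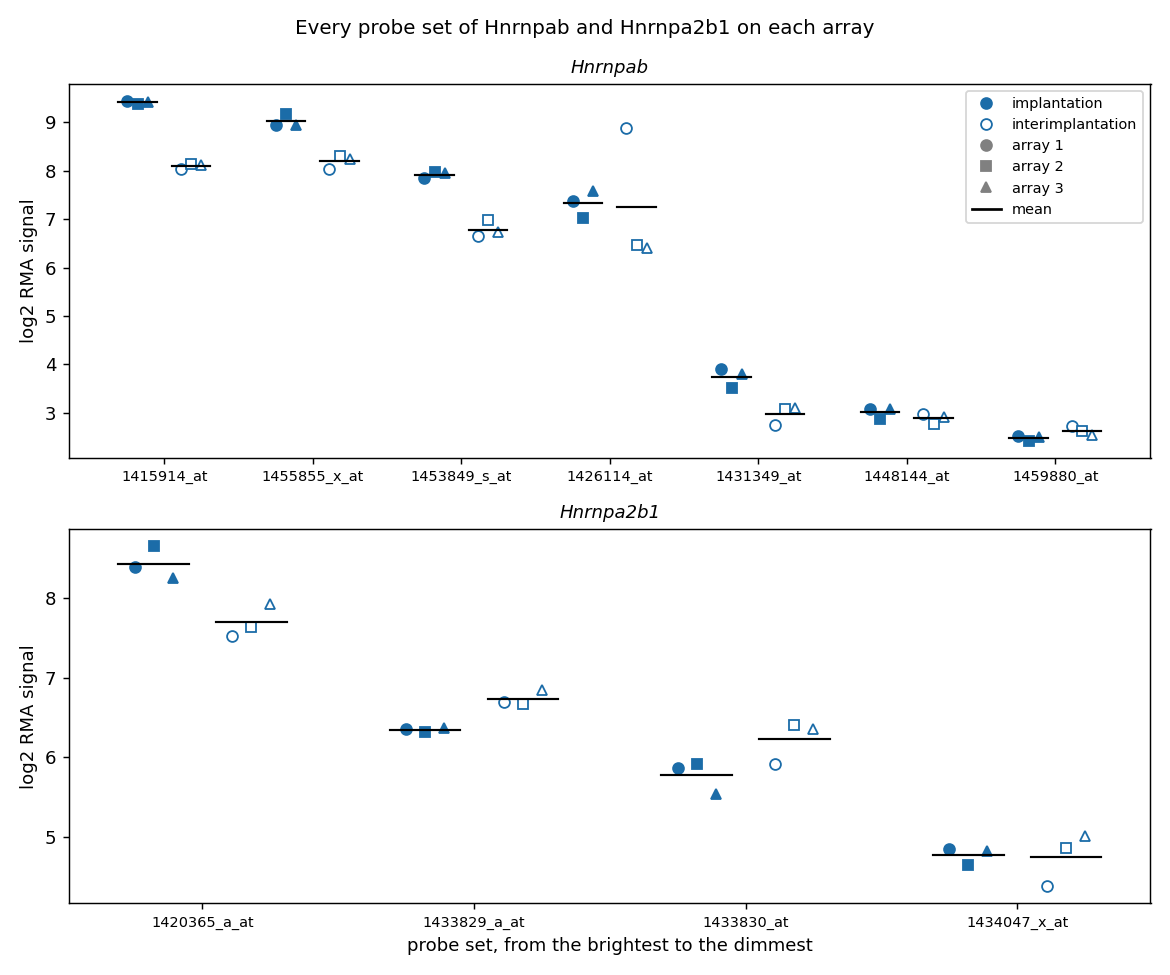
Log2 RMA signal (y axis) of the 7 probe sets of Hnrnpab and the 4 of Hnrnpa2b1 on each array; filled points are implantation arrays, open points interimplantation arrays, bars their means. For 1426114_at interimplantation array 1 lies at 8.88, and 1420365_a_at and 1433829_a_at separate the groups in opposite directions.

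Hnrnpu encodes a large nuclear protein, also called scaffold attachment factor A, that binds RNA and chromatin. Its probe set of highest mean read 8.87, 9.07 and 8.95 on the implantation arrays and 8.25, 8.43 and 8.29 on the interimplantation arrays, without overlap. The difference was 0.64 (SE 0.09, limma adjusted p = 0.00305). The other 4 probe sets of Hnrnpu were at 0.13, 0.41, -0.10 and -0.03 and were not called, and the mean over all 5 was 0.21 and not called (adjusted p = 0.153). Its relatives Hnrnpul1 and Hnrnpul2 were at 0.05 and -0.18 and were not called (adjusted p = 0.902 and 0.358).

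The F/H type binds runs of guanine near splice sites. Hnrnpf was at 0.51 by its probe set of highest mean (adjusted p = 0.183), where implantation array 2 (7.74) overlapped interimplantation array 3 (7.92). All 4 probe sets of Hnrnpf were positive, from 0.43 to 0.58. One of them, 1450963_at, read 8.14, 8.14 and 7.94 on the implantation arrays and 7.27, 7.66 and 7.55 on the interimplantation arrays, and was called (0.58, adjusted p = 0.0146). That call was lost without implantation array 1 or 2 (adjusted p = 0.0933 and 0.0772).

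Hnrnph2, dim at 4.19, 4.01 and 3.79 on the implantation arrays and 3.10, 3.56 and 3.60 on the interimplantation arrays, differed by 0.58 and narrowly missed the threshold (adjusted p = 0.0509). It passed with repeated quantile normalization, a trended and robust variance or array weights (adjusted p = 0.0440, 0.0457 and 0.0473). It also passed with scaling to the controls (adjusted p = 7.89e-04), but that scaling raises the differences of all genes alike. Hnrnph1 and Hnrnph3 were at 0.13 (95% interval -0.11 to 0.37) and 0.00 (-0.18 to 0.18).

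The other hnRNP genes have separate binding domains and partners. Hnrnpm, whose protein acts in the choice of alternative exons, read 7.44, 7.05 and 7.18 on the implantation arrays and 6.06, 6.86 and 6.66 on the interimplantation arrays. The groups did not overlap, but the interimplantation arrays were widely spread. The difference was 0.70 (SE 0.17, adjusted p = 0.0610), and it was called under 6 of the 13 alternatives that measured it, with adjusted p from 9.33e-05 to 0.0498. The lowest of these adjusted p came from scaling to the controls, which raises the differences of all genes alike. Hnrnpr was at 0.45 by its probe set of highest mean (adjusted p = 0.0779), with its other 2 probe sets at -0.08 and -0.15. Hnrnpl, whose protein binds CA-rich repeats, was at 0.22 (adjusted p = 0.283) with separate groups. Hnrnpk, whose protein binds cytosine runs, Hnrnpc, a binder of uridine tracts, and Hnrnpll lay between 0.02 and 0.08, with intervals from -0.25 at the lowest to 0.33 at the highest.

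Over the 18 Hnrnp genes, each centred on its own mean, the median was 0.16, 0.03 and 0.09 on the implantation arrays and -0.28, -0.08 and 0.02 on the interimplantation arrays. The lowest implantation and the highest interimplantation array were almost level, and interimplantation array 1 lay farthest down. Without it the median difference of the Hnrnp genes was 0.14, with 4 called higher and 1 lower.

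**Figure D3:**
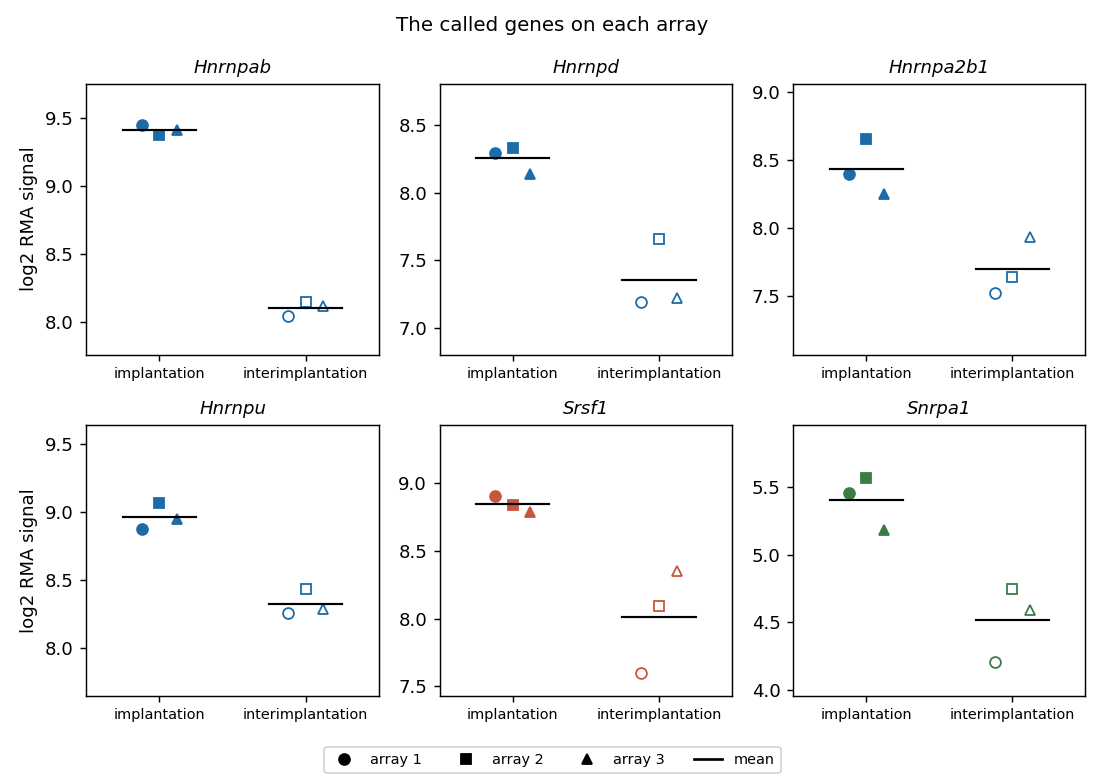
Log2 RMA signal (y axis, each panel spanning the same width) of the 6 called genes on each array, implantation arrays left (filled) and interimplantation arrays right (open), with the mean as a bar. No panel has overlapping groups, and each has its lowest value on interimplantation array 1.

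Among the SR protein genes, Srsf1, which encodes a founding member of the family that acts in splicing, nuclear export and translation, stood apart from the rest. Its probe set of highest mean read 8.90, 8.84 and 8.79 on the implantation arrays and 7.60, 8.10 and 8.35 on the interimplantation arrays. The implantation arrays were tightly grouped and all higher, while the interimplantation arrays were widely spread. The difference was 0.83 (SE 0.15, 1.78-fold, limma adjusted p = 0.0130).

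Other probe sets of Srsf1 were more even. For 1453722_s_at the readings were 8.24, 8.26 and 7.97 on the implantation arrays and 7.39, 7.44 and 7.39 on the interimplantation arrays (difference 0.75, adjusted p = 0.00179). For 1452430_s_at the difference was 0.88 (adjusted p = 0.00222) and for the dim 1430982_at 0.96 (adjusted p = 0.00114). In all, 4 of its 6 probe sets were called higher. Of the others, 1434972_x_at was at 0.80 and was not called (adjusted p = 0.0563), and the very dim 1428100_at was at -0.11. The call of the probe set of highest mean was lost on dropping implantation array 1, 2 or 3 (adjusted p = 0.0835, 0.0619 and 0.0574).

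Srsf2, whose protein is also known as SC35, was at 0.38 by its probe set of highest mean, with 7.91, 7.75 and 7.69 on the implantation arrays and 7.27, 7.38 and 7.54 on the interimplantation arrays. The groups were separate but the test did not pass (adjusted p = 0.0674). Of its other 3 probe sets 1427504_s_at was called higher (0.65, adjusted p = 0.00243), with 4.31, 4.30 and 4.40 on the implantation arrays and 3.77, 3.73 and 3.56 on the interimplantation arrays. The remaining pair was at 0.14 and -0.10.

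No other SR protein gene was called. Srsf5 read 6.97, 6.69 and 6.75 on the implantation arrays and 6.99, 7.10 and 7.46 on the interimplantation arrays, with separate groups and a difference of -0.38 (adjusted p = 0.163). Srsf3, which encodes the smallest member of the family, was at -0.37 (adjusted p = 0.141) by its probe set of highest mean, with 4 of its 6 probe sets positive. It was called lower with array weights and without interimplantation array 1 (adjusted p = 0.0466 and 0.0372). Srsf4 was at -0.25 with separate groups (adjusted p = 0.183). Srsf9 and Srsf10 were at -0.19 and -0.20, and Srsf6 and Srsf11 at 0.04 and 0.08. Scaling to the hybridisation controls shifts all genes alike, which turns these negative values positive, and the Srsf median (0.21) then still lay below that of all genes (0.38).

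The median of the centred Srsf genes lay between -0.07 and 0.02 on the implantation arrays and at -0.01, -0.12 and 0.20 on the interimplantation arrays. The groups overlapped, and the highest value was that of interimplantation array 3. Without this array the Srsf median difference was -0.03, against -0.19 with it.

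Among the proteins of the snRNPs, the U2 snRNP recognises the branch site of the intron. Snrpa1 encodes its A' protein. Its probe set of highest mean read 5.46, 5.56 and 5.18 on the implantation arrays and 4.21, 4.75 and 4.59 on the interimplantation arrays, and every implantation array was higher. The difference was 0.89 (SE 0.14, 1.85-fold, limma adjusted p = 0.00506). This probe set, 1417352_s_at, is shared by several transcripts, and all 3 probe sets of Snrpa1 are of a shared kind, so the gene drops out where those are left out. With a mean of 4.96, 1417352_s_at was itself no brighter than the brightest Bacillus control (5.79). The other 2 were dimmer still, at differences of 0.18 and 0.13.

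Snrpb2 encodes the B'' protein, which binds the A' protein within the same particle. It did not move with Snrpa1. Its readings were 5.03, 4.95 and 5.20 on the implantation arrays and 5.21, 5.07 and 5.22 on the interimplantation arrays, and the difference was -0.11 (95% interval -0.31 to 0.09, adjusted p = 0.674). All 3 of its probe sets were negative, from -0.19 to -0.11.

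The Sm ring proteins were mixed. Snrpe was at 0.35, with 5.22, 5.33 and 5.37 on the implantation arrays and 4.96, 5.03 and 4.88 on the interimplantation arrays, and just missed the threshold (adjusted p = 0.0592). It was called under 5 of the 13 alternatives that measured it, with adjusted p from 0.0254 to 0.0417. The lowest of these adjusted p came from scaling to the controls, which raises the differences of all genes alike. Snrpb was at 0.29 with separate groups (adjusted p = 0.140), Snrpg at 0.08 and Snrpn, an imprinted relative of Snrpb, at -0.20. Snrpd3 was at -0.11 by its probe set of highest mean (adjusted p = 0.682). Another of its probe sets, 1422884_at, was called higher at 0.43 (adjusted p = 0.0399), with 5.66, 5.79 and 5.59 on the implantation arrays and 5.09, 5.38 and 5.26 on the interimplantation arrays. That call was kept if interimplantation array 2 was left out and lost for each of the other 5 arrays (adjusted p of 0.0684 to 0.155). Snrpc, the C protein of the U1 snRNP that recognises the start of the intron, was at 0.01 (95% interval -0.19 to 0.21).

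The SF3a and SF3b complexes join the U2 snRNP at the branch site. None of their 9 genes was called, and by the probe set of highest mean none differed by more than 1.22-fold. Sf3b6, whose protein contacts the branch point, read 6.86, 6.78 and 6.87 on the implantation arrays and 6.80, 6.48 and 6.36 on the interimplantation arrays. Interimplantation array 1 lay within the implantation values, and the difference was 0.29 (adjusted p = 0.251). Without that array it was 0.41 and called (adjusted p = 0.0275).

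Sf3b1, the large scaffold subunit, was at -0.26 (SE 0.11, adjusted p = 0.328) by its probe set of highest mean. All 3 of its probe sets were negative, at -0.26, -0.19 and -0.24, and none was called. Scaled to the hybridisation controls, the first of these stood at 0.14. Sf3b4 was at 0.23 (adjusted p = 0.331) and Sf3b5 at 0.10 (95% interval -0.14 to 0.35). Sf3b3 and Sf3b2 were at 0.04 and 0.00. Sf3a3 was at 0.15, Sf3a1 at 0.00 (95% interval -0.18 to 0.19) and Sf3a2 at -0.22 with separate groups (adjusted p = 0.269).

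**Figure D4:**
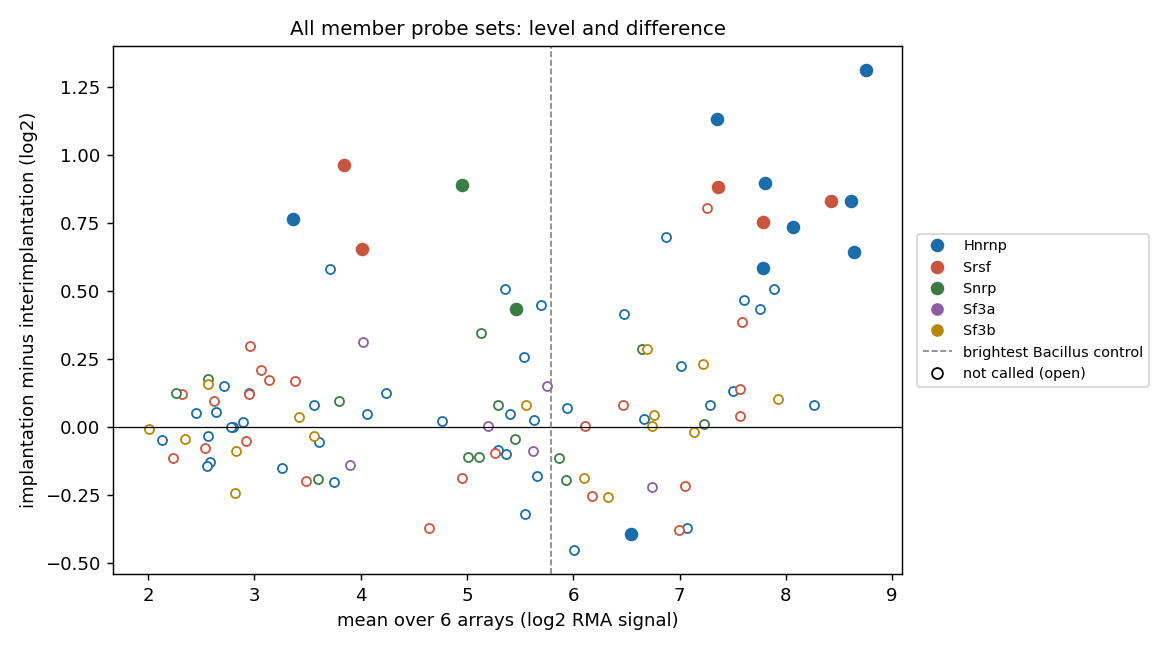
Mean level over the 6 arrays (x axis, log2 RMA signal) and difference between the groups (y axis, log2) of the 115 member probe sets; filled points were called and the dashed line is the brightest Bacillus control (5.79). Called probe sets lie on both sides of the line, with 10 of 46 higher and 1 lower to its right and 5 of 69 higher to its left.

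Over all 115 probe sets 15 were called higher and 1 lower, against 1.26% higher and 1.05% lower of all probe sets. They belonged to 9 genes, 3 of which (Hnrnpf, Srsf2 and Snrpd3) were called only by a probe set other than that of highest mean. Among the 46 member probe sets brighter than every Bacillus control 10 were called higher (21.7%), against 4.02% of all such probe sets; without the probe sets of Hnrnpab and Hnrnpa2b1 it was 6 of 39 (15.4%). Of the 69 that were not brighter 5 were called higher (7.25%), against 0.601%, and without the same genes 4 of 65 (6.15%). Probe sets of a gene share its RNA and are not independent, and Hnrnpab and Srsf1 each had 4 of the 15.

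The other genes of splicing were 150 listed genes, of which 120 were measured and 9 were called higher and 3 lower (1.36% and 1.18% of all genes). No called gene lay in the lists of core machinery beyond the members. At those shares of all genes few calls are due in lists of this size, so their absence is near the background. None was called by limma among 13 genes of branch site recognition, 23 of the U1, U5 and U4/U6 snRNPs, 21 of the catalytic step and the Prp19 complex, 6 of the Lsm ring or 11 of snRNP assembly. In that order 8, 7, 6, 1 and 2 of these genes were brighter than every Bacillus control. Of all probe sets that were not brighter, 0.601% were called higher, against 4.02% of the brighter ones. The list medians ran from -0.04 to 0.04. The listed genes nearest to the threshold were Cwc15, a protein of the Prp19 complex (0.34, adjusted p = 0.0522), and the branch site binder Sf1 (0.35, adjusted p = 0.0701). Next was the arginine methyltransferase Prmt5, which modifies Sm proteins (0.38, adjusted p = 0.0947). The RNA helicase Dhx15 was at 0.34, the ring subunits Lsm8 and Lsm3 at 0.33, and Ddx20 of the SMN complex at 0.22. The kinase Prpf4b was at -0.25, Prpf39 of the U1 snRNP at -0.32 and the spliceosome component Snw1 at -0.25. Adjusted p of these 7 genes ran from 0.120 to 0.283.

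Among genes of the exon junction complex and mRNA export, 3 of 15 were called higher and 0 lower, with a list median of 0.00. Alyref, the adaptor that hands mRNA to the export receptor, was higher by 0.50 (adjusted p = 0.0112). The export cofactor Nxt1 was higher by 0.39 (adjusted p = 0.0378), and Rbm8a, a core protein of the junction complex, by 0.39 (adjusted p = 0.0405). With any 1 array left out these differences stayed between 0.44 and 0.54 for Alyref, 0.36 and 0.45 for Nxt1 and 0.32 and 0.44 for Rbm8a, but not all calls were kept. Alyref lost its call if implantation array 1 or 2 or interimplantation array 3 was dropped (adjusted p of 0.0519 to 0.0600). Nxt1 kept its call if interimplantation array 2 was left out, and lost it for each of the other 5 (adjusted p of 0.0615 to 0.174). Rbm8a kept its call if interimplantation array 1 was left out, and lost it for each of the other 5 (0.0924 to 0.182), without shared probe sets (0.0502) and by the average of its probe sets (0.298). In the fit blocked on the replicate number neither Nxt1 nor Rbm8a was called (adjusted p = 0.0541 and 0.0616).

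Among other splicing regulators and RNA-binding proteins 6 of 31 genes were called higher and 3 lower, with a median of 0.01. Syncrip, an hnRNP Q protein and close relative of Hnrnpr, had the largest positive difference among the listed genes. It read 6.22, 6.07 and 6.02 on the implantation arrays and 5.07, 5.20 and 5.43 on the interimplantation arrays, a difference of 0.87 (SE 0.10, 1.83-fold, limma adjusted p = 0.00123). Sfpq and Pspc1, proteins of nuclear paraspeckles, were higher by 0.71 and 0.52 (adjusted p = 0.00914 and 0.0130). Tra2b, an SR-like activator of exon inclusion, was higher by 0.62 and Pcbp1, a poly(C) binder related to Hnrnpk, by 0.58. Ybx1, which packages mRNA, was higher by 0.55 (adjusted p of Tra2b, Pcbp1 and Ybx1 from 0.00416 to 0.00942). Sfpq, Pspc1 and Tra2b were not called by the mean of their probe sets (0.20, 0.27 and 0.36). Sfpq and Ybx1 lost their calls without implantation array 1 (adjusted p = 0.0669 and 0.0679), and Pspc1 without any one implantation array (adjusted p of 0.0538 to 0.0769).

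Ptbp2 is a repressor of alternative exons best known from neurons. It read 5.39, 5.49 and 5.40 on the implantation arrays and 5.86, 6.17 and 6.33 on the interimplantation arrays. It was lower by 0.70 (SE 0.11, limma adjusted p = 0.00637). Its widely expressed relative Ptbp1 was at 0.39 with separate groups and was not called (adjusted p = 0.0803). Rbm39, a splicing factor related to U2af2, was lower by 0.74 (adjusted p = 0.00910) by its probe set of highest mean. The average of its probe sets was -0.11 and not called (adjusted p = 0.462). Without shared probe sets Rbm39 was at 0.02 (adjusted p = 0.967). Rbm5, a splicing regulator that arrests growth of cultured cells, was lower by 0.47 (adjusted p = 0.0255). Scaled to the hybridisation controls, Ptbp2, Rbm39 and Rbm5 were at -0.30, -0.34 and -0.07 and not called (adjusted p of 0.188 to 0.746). The mean over their probe sets ended the calls of Ptbp2 and Rbm5 as well (adjusted p = 0.0750 and 0.741). Rbm39 lost its call if implantation array 2 or 3 was dropped (adjusted p = 0.0564 and 0.0574), and Rbm5 kept its call only if interimplantation array 1 was the one left out (otherwise adjusted p of 0.0569 to 0.123).

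**Figure D5:**
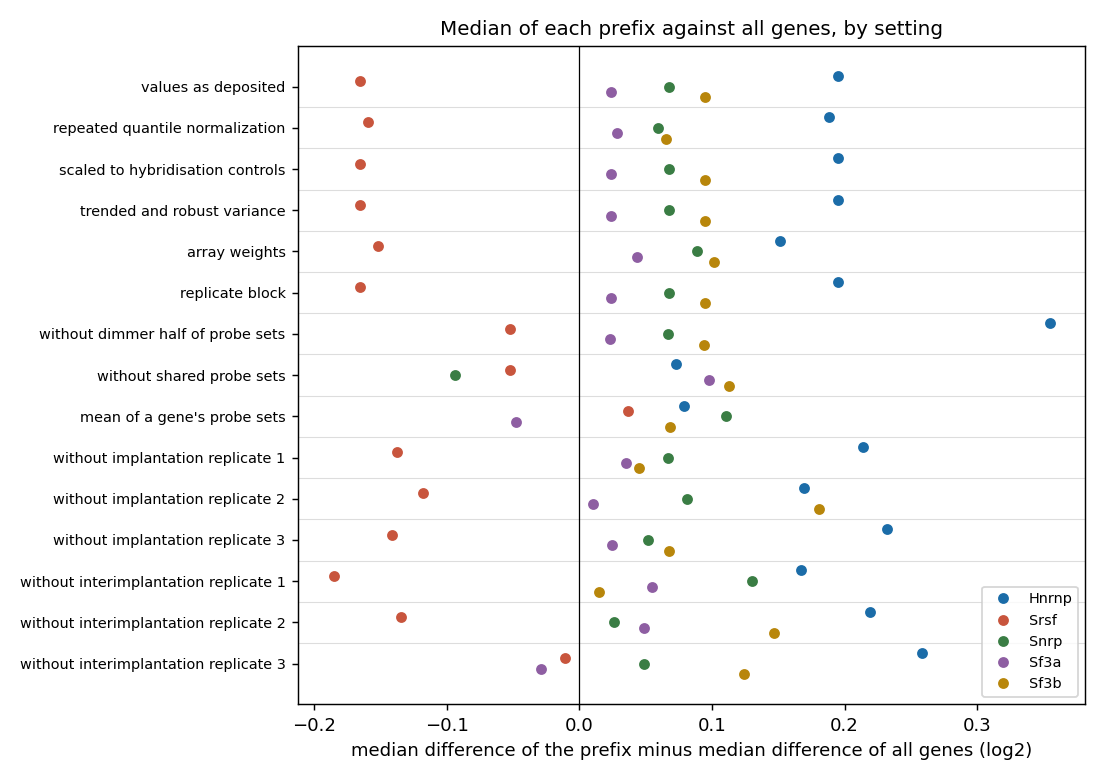
Median difference of each prefix minus the median difference of all genes (x axis, log2), with the values as deposited and under each of the 14 alternatives (rows). The Hnrnp median lies above that of all genes in every row, from 0.07 to 0.35, while the Srsf median lies below except with averaged probe sets.

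Set against all genes, the Hnrnp median lay 0.20 higher with the values as deposited. Without the dimmer probe sets it lay 0.35 higher. With shared probe sets dropped it lay 0.07 higher, over 15 Hnrnp genes; Hnrnpd, Hnrnpm and Hnrnpr are not measured there. The Srsf median lay 0.17 below that of all genes with the values as deposited, and 0.04 above it with averaged probe sets.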

How the data were processed

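Total RNA extracted with Trizol, per the labels' protocols, from 3 implantation and 3 interimplantation samples was measured on an Affymetrix mouse array. The same RNAs were also run on a human array, per the series' design text, which is not analysed here. The authors deposited 1 value per probe set and array, a log2 signal made with Partek 6.6 and RMA, per the submitters' processing notes. The log base is not given there and was taken from RMA's usual output. RMA makes the arrays' distributions alike, which removes a shift shared by all probe sets. No filter on level was used. After removal of 64 control probe sets, 22626 were fitted with limma 3.58.1 under R 4.3.3 (lmFit, eBayes, group only, two-sided, Benjamini-Hochberg over all probe sets), and adjusted p-values are from this fit unless an alternative or a left-out array is named beside them. The number of arrays limits the precision. Among 22626 simulated probe sets of this comparison, 56% of 50 changes of 0.5 and 90% of 50 changes of 1 (log2) were called.

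The members, the lists and the alternatives were chosen with earlier results of these data known. Described in full are the called members, the 4 members of smallest p of each prefix, members with a called probe set beside one of opposite sign, and all probe sets of Hnrnpab and Hnrnpa2b1; of the lists, the called genes or the 2 of smallest p. Others are named to account for every member, and Ptbp1 was chosen after its values were seen. Sequences were not used here. Correlations of deviations were -0.09, 0.07 and -0.03 for arrays of the same number, and -0.09 to 0.10 for arrays of different number. They do not settle whether arrays share an animal. The number was not taken as a pairing in the main fit.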

Additional observations from a re-analysis of the deposited data

How the results depend on the processing

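Sf3a had no calls in either direction, and Hnrnp, Snrp and Sf3b no lower calls, under the 8 alternatives that keep all arrays. With scaling to the hybridisation controls the higher calls were 8 for Hnrnp, 2 for Srsf, 3 for Snrp and 1 for Sf3b, and the medians were 0.57, 0.21, 0.44, 0.40 (Sf3a) and 0.47 (Sf3b). Under that scaling 3.63% of all genes were called higher and 0.0646% lower, and the median of all genes was 0.38. With array weights 7 Hnrnp and 2 Snrp genes were higher and 1 Srsf gene lower, against 1.75% of all genes higher and 1.72% lower. Without the probe sets dimmer than the median of all, 2 Srsf and 2 Snrp genes were higher and the Hnrnp median was 0.34. Among all genes left there, 2.48% were higher. Without shared probe sets 36 members were left, no Snrp gene was called, and the Hnrnp, Snrp and Sf3a medians were 0.053, -0.11 and 0.078; Hnrnpa2b1 was then at -0.45. With probe sets averaged per gene 2 Snrp genes were higher, the Hnrnp, Srsf and Sf3a medians were 0.059, 0.017 and -0.068, and Hnrnpa2b1 was at -0.021. That averaging called 1.04% of all genes higher. Repeated quantile normalization called 2 Snrp genes higher, and 1.51% of all genes. Of the 120 other genes of splicing, 18 were higher and 0 lower with scaling to the controls, and 6 and 0 with averaged probe sets, against 9 and 3. The causes of these shifts were not tested.

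Leaving out 1 array at a time gave 4 to 5 higher and 0 to 1 lower Hnrnp genes, 0 to 1 higher and 0 to 1 lower Srsf genes, 1 higher Snrp gene and 0 to 1 higher Sf3b genes. Among all genes 0.573% to 1.56% were then higher and 0.444% to 1.94% lower. The medians ran from 0.14 to 0.24 (Hnrnp), -0.21 to -0.030 (Srsf), 0.0084 to 0.10 (Snrp), -0.048 to 0.031 (Sf3a) and -0.011 to 0.16 (Sf3b). With the replicate number as a block 6 members were higher and 0 lower, as without it. The signal over background limits the dim probe sets, since 69 of the 115 were no brighter than the brightest Bacillus control.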
